A study of Mus musculus with 12 samples.

Results

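The conjugating enzymes of phase II metabolism were followed in mouse liver across 4 groups. The members were the rows of the deposited gene table whose symbol names a UDP-glucuronosyltransferase (UGT) of families 1 to 3, a glutathione S-transferase (GST) of classes alpha, kappa, mu, omega, pi, theta or zeta, or a sulfotransferase (SULT), with rows that join several symbols left out. This gave 50 genes of 23849 in the table, namely 10 UGTs, 21 GSTs and 19 SULTs. Of these, 34 had a mean of at least 1 FPKM (fragments per transcript length and library size) over the 12 libraries and were tested, among 9806 genes in all. The tested members were 9 UGTs, 17 GSTs and 8 SULTs. All mice were males on a C57BL/6J background, 8 weeks old, fed a high-fat diet. They received either vehicle or Libramed, the fibre-based product called Policaptil Gel Retard in the study, for 2 weeks by oral gavage. Livers were taken at ZT0, when the lights come on and the active phase of the mouse ends, or at ZT12, when the lights go off and it begins. The study's methods place the daily gavage shortly before the lights go off, and the high-fat diet began before the product. Time of day and time since gavage therefore cannot be told apart here. Each of the 4 groups (vehicle ZT0, vehicle ZT12, Libramed ZT0, Libramed ZT12) held 3 biological replicates with 1 library per mouse, and the high-fat diet was common to all 12 mice.

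Phase II enzymes attach a polar group to drugs, hormones, bile acids and reactive metabolites so that they can leave the cell and the body. UGTs in the endoplasmic reticulum transfer glucuronic acid from UDP-glucuronic acid, cytosolic SULTs transfer sulfate from the donor PAPS, and GSTs join glutathione to electrophiles. In liver many of these genes are under the nuclear receptors CAR and PXR and the stress factor NRF2, and the circadian PAR bZIP proteins DBP, TEF and HLF act upstream of CAR.

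The libraries showed liver RNA with limits. Summed levels of the hepatocyte markers were between 36360 and 52327 FPKM, although albumin (Alb) was listed at 0 in every library, which can be a failed estimate. Read totals were not used here, but the steps between low values gave relative depths from 0.70 (Libramed ZT12 replicate 2) to 1.26, a 1.80-fold range. The members together held 0.771% to 1.03% of each library's FPKM sum.

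Levels differed by about 3 orders of magnitude between the 34 tested members, and since FPKM is a value per length these levels can be set side by side. The highest mean level over the 12 livers was that of Gsta3, an alpha class GST known for detoxifying aflatoxin epoxide, with 1539 FPKM. Gstp1 of the pi class followed with 1052 FPKM. Gstz1, the maleylacetoacetate isomerase of tyrosine breakdown, had 562 FPKM. The main mu class enzyme Gstm1 had 455 FPKM and the theta class enzyme Gstt1 had 418 FPKM, and among the SULTs the bile acid sulfotransferase Sult2a8 (429 FPKM) and the phenol sulfotransferase Sult1a1 (220.0 FPKM) led. Among the UGTs the highest means were those of Ugt2b36 (278 FPKM) and Ugt2b5 (275 FPKM), which do not differ beyond their spread (within-group SD 0.16 and 0.23 on the log2 scale). Of family 3, whose members use other UDP-sugars than UDP-glucuronic acid, Ugt3a2 had 164 FPKM and Ugt3a1 15.9 FPKM. Of the 16 members under 1 FPKM, 5 were listed at 0 in all 12 libraries (Sult1c1, Sult2a3, Sult2a4, Sult2a5 and Sult2a6), and the other 11 included Gsta1, Gsto2, Gstp2, Gstt4, Ugt2b37, Sult2a1 and Sult2a2.

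**Figure D1:**
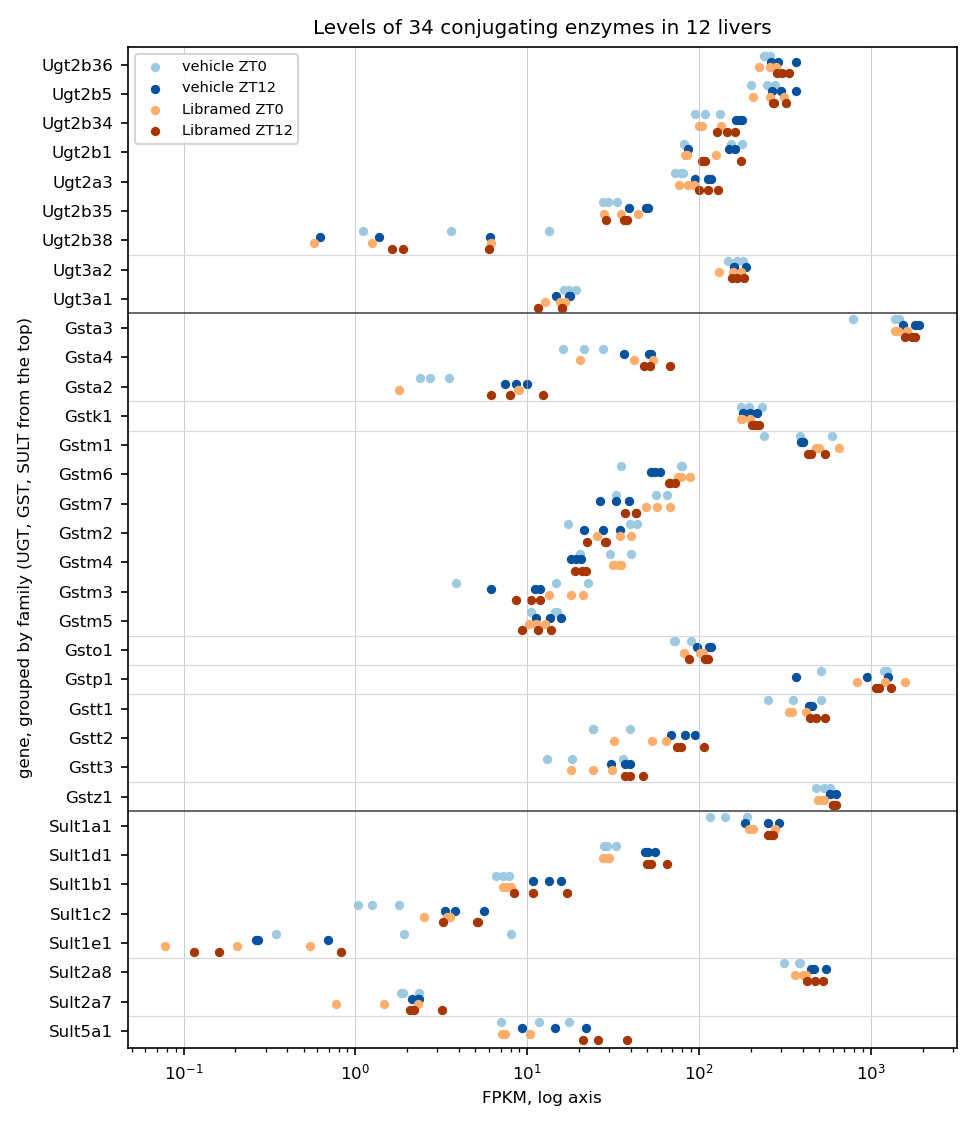
Level of each of the 34 tested conjugating enzymes in the 12 livers, in FPKM on a log axis, with 1 dot per mouse coloured by group and genes ordered by family. Gsta3 lies at the top end between 788 and 1912 FPKM, Sult1e1 and Sult2a7 at the low end.

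Most members lie in gene clusters (GENCODE vM21 on mm10, the build of the deposited values). The 8 UGT2 members lie on chromosome 5 between 86889767 and 87424203, and the neighbouring stretch from 87513339 to 87591594 holds Sult1b1, Sult1d1 and Sult1e1. All 7 mu class GSTs lie on chromosome 3 between 107895821 and 108044894, and the 4 theta class GSTs on chromosome 10 between 75774115 and 75837424. Neighbours in such clusters resemble each other in sequence, so reads can be split between them. Of the tested members, 22 shared no stretch of 100 bases with a transcript of another gene, and 6 shared over 10% of such stretches. These 6 were Gsta2 (28.4%), Gstp1 (25.1%, all with Gstp2), Ugt2b5 (24.7%) and Ugt2b38 (24.2%), which share with each other, Gstm3 (13.8%) and Gstt3 (10.8%), and their values are uncertain to that extent.

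The UGT1A enzymes are missing from the members because the table gives them as 1 row that joins 8 symbols (Ugt1a1, Ugt1a2, Ugt1a5, Ugt1a6a, Ugt1a6b, Ugt1a7c, Ugt1a9 and Ugt1a10). These transcripts share their last exons, and Ugt1a1 is the bilirubin-conjugating enzyme. The joined row rose at ZT12, from 236.5 ± 15.0 FPKM (SD, n = 3) to 369.6 ± 26.7 FPKM in vehicle and from 257.0 ± 12 FPKM to 358 ± 23.7 FPKM in Libramed. No ZT0 library reached any ZT12 library. The log2 fold change over both treatments was 0.56 ± 0.06 (SE), with an adjusted p of 6.38e-05 (limma, Benjamini-Hochberg over the 9806 genes, as for every adjusted p here).

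The first question was which conjugating enzymes change between the start of the rest phase and the start of the active phase. Over both treatments, with 6 mice at each time, 14 of the 34 members rose at ZT12 and 2 fell at an adjusted p under 0.05, against 29.7% of all genes tested. At an unadjusted p under 0.05, 17 members were higher and 2 lower at ZT12, against 41% of all genes. The median log2 fold change was 0.29 over the 34 members and 0.01 over all genes tested. By family, 6 of 8 SULTs rose (75% called) and 3 of 9 UGTs rose (33.3%, close to the 29.7% of all genes). Among 17 GSTs 5 rose while 2 fell (41.2% called). The median was 0.57 for the SULTs, 0.26 for the UGTs and 0.10 for the GSTs.

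The same comparison within each treatment had 3 mice at each time. In vehicle, 9 members rose and none fell, against 10.4% of all genes called in limma, and the count at an unadjusted p under 0.05 was 13 up and 1 down, against 27.4%. In Libramed, 3 rose and 2 fell, against 12.4% of all genes, with 12 up and 4 down at an unadjusted p under 0.05, against 29.2%. The median over the members was 0.31 in vehicle and 0.24 in Libramed. These counts move with single libraries: the 9 calls in vehicle become 2 without vehicle ZT0 replicate 3, 3 without vehicle ZT12 replicate 2 and 5 without vehicle ZT12 replicate 1. The 5 calls in Libramed become 3 without Libramed ZT0 replicate 2 or without any one of the 3 Libramed ZT12 libraries. Sult1d1 and Gsta2 in vehicle, and Sult1d1, Gstm4 and Sult5a1 in Libramed, kept their call without any one library. Summed over each family with no test, the SULTs were at 565 ± 12.1 FPKM (SD, n = 3) in vehicle at ZT0 and 817 ± 15.2 FPKM at ZT12, and at 670.4 ± 56.8 and 842 ± 71.1 FPKM in Libramed. The UGT sums were 1034 ± 136 and 1263 ± 184 FPKM in vehicle and 1018 ± 146 and 1203 ± 141 FPKM in Libramed.

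**Figure D2:**
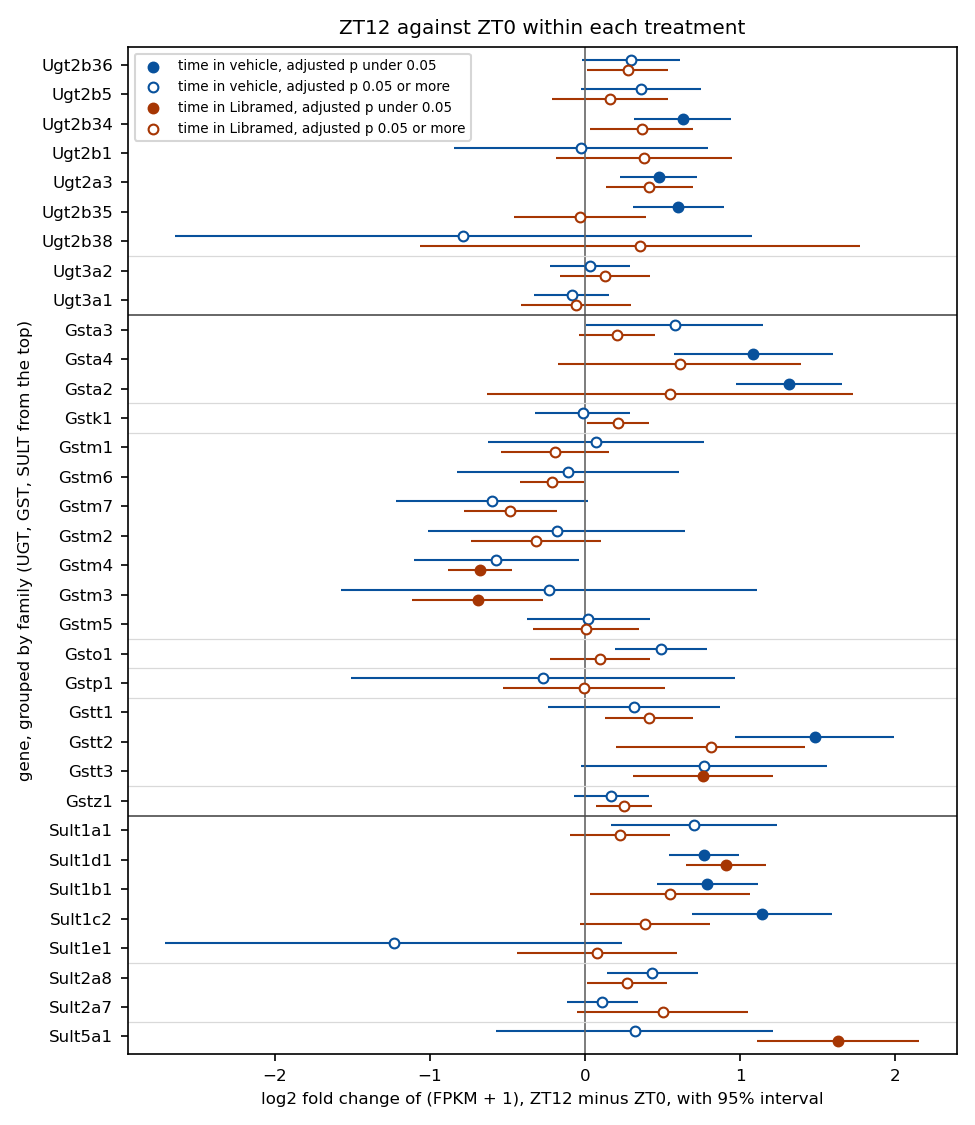
Log2 fold change of (FPKM + 1) from ZT0 to ZT12 for each of the 34 members, in vehicle (blue) and in Libramed (brown), with 95% intervals from limma and 3 mice at each time. Filled dots have an adjusted p under 0.05. Sult1d1 is filled in both treatments, and Gstm4 and Gstm3 are the filled dots to the left of 0.

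Markers of other cells also moved with time. All 4 tested endothelial markers were lower at ZT12 over both treatments at an adjusted p under 0.05, where 29.7% of all genes were called. The summed level of the 5 on the list ran from 23.3 to 32.8 FPKM in vehicle at ZT0, 12.2 to 20.7 at ZT12, 30.1 to 38.2 in Libramed at ZT0 and 19.2 to 20.3 at ZT12. All 4 tested stellate cell markers had a lower estimate at ZT12, and 3 passed the same threshold. At an unadjusted p under 0.05, 0 of 4 were lower in vehicle alone and 4 in Libramed alone. The list sums were 31.4 to 58.4 FPKM at ZT0 and 29.2 to 45.7 at ZT12 in vehicle, and 48.0 to 64.8 and 23.2 to 41.9 in Libramed. Their part in the changes of the conjugating enzymes was not tested. In whole liver, fewer cells of a type and less RNA per cell cannot be told apart.

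Of the sulfotransferases, Sult1d1 rose in both treatments. It sulfates catecholamines and small phenols and lies at chr5:87554645-87569027, minus strand. In vehicle its level was 27.9, 33.0 and 29.0 FPKM at ZT0 and 55.4, 50.7 and 48.7 FPKM at ZT12. In Libramed it was 30.0, 27.7 and 29.3 FPKM at ZT0 and 52.6, 50.0 and 64.7 FPKM at ZT12. All 6 mice at ZT12 were above all 6 at ZT0. The log2 fold change was 0.77 ± 0.10 (SE) in vehicle (adjusted p = 0.00739), 0.91 ± 0.11 in Libramed (adjusted p = 0.00440) and 0.84 ± 0.07 over both (adjusted p = 1.26e-05). It kept its call in both treatments under each of the alternatives tried.

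Sult1b1, which sulfates thyroid hormones and small phenols, lies beside it at chr5:87513339-87538195 on the same strand. It was at 7.83, 7.19 and 6.56 FPKM in vehicle at ZT0 and at 15.7, 10.9 and 13.3 FPKM at ZT12. In Libramed it was at 7.63, 7.24 and 8.06 FPKM at ZT0 and at 8.42, 10.9 and 17.1 FPKM at ZT12. The ZT12 values lay above all ZT0 values, with Libramed ZT12 replicate 1 only just above. The rise was 0.67 ± 0.14 over both treatments (adjusted p = 0.00366) and passed in vehicle alone (0.79 ± 0.14, adjusted p = 0.0184) but not in Libramed alone (0.55 ± 0.22, adjusted p = 0.15).

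The bile acid sulfotransferase Sult2a8 was at 313, 388 and 379 FPKM in vehicle at ZT0 and at 548, 468 and 445 FPKM at ZT12. Its Libramed values were 419, 361 and 402 FPKM at ZT0 and 475, 425 and 529 FPKM at ZT12. Again no ZT0 library reached a ZT12 library, and the rise over both treatments was 0.35 ± 0.08 (adjusted p = 0.00786). Quantile normalization left it at an adjusted p of 0.0537. Sult1a1, which sulfates phenolic drugs, rose by 0.47 ± 0.15 (adjusted p = 0.0373), with means of 149 ± 38.4 FPKM (SD, n = 3) and 243 ± 52.7 FPKM at ZT0 and ZT12 in vehicle and of 226 ± 45 FPKM and 262 ± 7.56 FPKM in Libramed. That call was lost in 10 of 19 alternatives, including without any one of vehicle ZT0 replicates 2 and 3, vehicle ZT12 replicates 2 and 3, Libramed ZT0 replicates 1 and 2, and Libramed ZT12 replicates 2 and 3 (0.36 to 0.49 on the log2 scale, adjusted p 0.0509 to 0.0824). The estrogen sulfotransferase Sult1e1 and the low-level Sult2a7 did not pass, and Sult1e1 was at 8.03 FPKM in vehicle ZT0 replicate 2 against 0.0785 to 1.92 FPKM in the other 11 livers.

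Sult1c2 and Sult5a1 rose over both treatments, but their 2 treatments looked less alike. Sult1c2 was at 1.80, 1.04 and 1.25 FPKM in vehicle at ZT0 and at 3.31, 3.82 and 5.63 FPKM at ZT12. In Libramed it was at 2.5, 3.43 and 3.57 FPKM at ZT0 and at 5.08, 3.22 and 5.19 FPKM at ZT12. The vehicle groups did not overlap (1.14 ± 0.19, adjusted p = 0.0163), whereas the Libramed groups did (0.39 ± 0.18, adjusted p = 0.204). Sult5a1 was at 6.99, 17.6 and 11.7 FPKM in vehicle at ZT0 and at 22.1, 14.5 and 9.31 FPKM at ZT12. In Libramed it was at 10.4, 7.40 and 7.13 FPKM at ZT0 and at 25.8, 21.2 and 37.9 FPKM at ZT12. Here the Libramed groups were apart (1.63 ± 0.22, adjusted p = 0.0066) and the vehicle groups overlapped (0.32 ± 0.38, adjusted p = 0.634). Over both treatments the rise of Sult1c2 was 0.76 ± 0.17 (adjusted p = 0.00585) and that of Sult5a1 0.98 ± 0.30 (adjusted p = 0.0265). The call of Sult5a1 over both was lost without any one of vehicle ZT0 replicate 1, vehicle ZT12 replicate 1, Libramed ZT0 replicates 2 and 3, and Libramed ZT12 replicates 1 and 3 (adjusted p 0.0527 to 0.0610). Neither difference between treatments passed its own test, given with the interaction.

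Promoter sequences are shown for the members whose 250 bases upstream of a RefSeq start held a motif of a circadian or stress factor and that were high or rising here. Searched on both strands were the E-box CACGTG, the D-box TTATGTAA or TTACGTAA, the RORE TAGGTCA bound by the REV-ERB and ROR receptors, and the antioxidant response element (ARE) TGACNNNGC bound by NRF2. Of the 50 members 43 have an entry in the RefSeq table (build GRCm38.p6), and the others are Ugt3a2, Gstt2, Gsta4, Sult2a1, Sult2a2, Sult2a7 and Sult4a1. Capitals mark the motif.
Sult1b1, chr5:87538196-87538445, minus strand, RORE beginning 123 bases before the start: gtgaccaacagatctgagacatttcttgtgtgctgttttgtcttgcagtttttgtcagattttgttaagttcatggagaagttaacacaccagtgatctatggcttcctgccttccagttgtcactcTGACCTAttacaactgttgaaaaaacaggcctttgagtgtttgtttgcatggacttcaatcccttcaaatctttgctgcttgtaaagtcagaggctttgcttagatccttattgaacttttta
Sult2a8, chr7:14438552-14438801, minus strand, RORE beginning 91 bases before a start that lies inside the gene: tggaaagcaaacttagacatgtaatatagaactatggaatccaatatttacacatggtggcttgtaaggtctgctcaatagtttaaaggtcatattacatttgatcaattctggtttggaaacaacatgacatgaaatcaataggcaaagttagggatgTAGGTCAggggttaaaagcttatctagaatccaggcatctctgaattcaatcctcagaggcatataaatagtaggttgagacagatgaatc
Gsta3, chr1:21240335-21240584, plus strand, ARE beginning 121 bases before the start: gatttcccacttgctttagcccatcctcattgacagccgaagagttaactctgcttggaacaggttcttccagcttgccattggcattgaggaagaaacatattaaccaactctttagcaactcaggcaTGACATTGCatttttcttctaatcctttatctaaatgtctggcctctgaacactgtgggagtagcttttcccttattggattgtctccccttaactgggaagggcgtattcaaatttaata
The RORE was found in 2 of 43 members (4.65%), those 2 shown, against 2.55% of all 27025 genes of the table. The ARE was found in 3 members (6.98%, Gsta3, Gstm5 and Gstm7) against 11.5% of all genes, and the D-box in 1 (2.33%, Ugt2b1) against 1.095%. No member held the E-box, which 6.86% of all genes held. A match only describes these letters in this window.

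Of the glucuronosyltransferases, Ugt2a3, Ugt2b34 and Ugt2b36 rose over both treatments. Ugt2a3, a bile-acid-conjugating enzyme at chr5:87324972-87337195, was at 72.8, 78.8 and 80.8 FPKM in vehicle at ZT0 and at 118, 112 and 94.7 FPKM at ZT12. With Libramed it was at 85.8, 75.9 and 92.9 FPKM at ZT0 and at 100.2, 112 and 128 FPKM at ZT12. Every ZT12 mouse was above every ZT0 mouse, and the rise over both treatments was 0.44 ± 0.08 (adjusted p = 0.00138). Within vehicle the call (0.48 ± 0.11, adjusted p = 0.0366) was lost in 8 of 14 limma alternatives, including without any one vehicle library other than ZT12 replicate 3 (adjusted p 0.0636 to 0.134), and was not made by Cyber-T.

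Ugt2b34 was at 94.5, 133 and 108 FPKM in vehicle at ZT0 and at 178, 173 and 164 FPKM at ZT12. Under Libramed the values were 134, 104 and 100.2 FPKM at ZT0 and 127, 145 and 162 FPKM at ZT12. The vehicle groups were apart (0.63 ± 0.13, adjusted p = 0.0309) and the Libramed groups overlapped (0.36 ± 0.14, adjusted p = 0.138), with 0.50 ± 0.10 over both (adjusted p = 0.00388). Ugt2b36, the UGT with the highest mean, rose by 0.29 ± 0.09 (adjusted p = 0.0249), from 247 ± 9.64 to 306 ± 54.6 FPKM in vehicle and from 254 ± 28.4 to 307 ± 24.8 FPKM in Libramed. Its call was lost under quantile normalization (adjusted p = 0.123) and without Libramed ZT0 replicate 2 (0.0551) or Libramed ZT12 replicate 3 (0.0572).

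Ugt2b35 rose in vehicle, from 27.5, 33.3 and 29.3 FPKM to 50.2, 49.4 and 39.3 FPKM (0.60 ± 0.12, adjusted p = 0.0298). That call was lost in 6 of 14 limma alternatives (adjusted p up to 0.111) and kept by Cyber-T. Over both treatments Ugt2b35 did not pass (0.28 ± 0.15, adjusted p = 0.163). Its Libramed values were 44.3, 27.9 and 35.0 FPKM at ZT0 and 28.7, 36.6 and 38.3 FPKM at ZT12, which overlapped. Ugt2b5 and Ugt2b1 did not pass in any comparison, and neither did Ugt3a1 and Ugt3a2, whose log2 fold changes over both treatments were -0.07 and 0.08. Ugt2b38 ranged from 0.572 to 13.4 FPKM, a 23.4-fold range.

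Among the glutathione S-transferases, members of the theta, alpha and zeta classes rose and members of the mu class fell. Gstt2, of the theta class that conjugates small halogenated compounds, lies at chr10:75831114-75837424, minus strand. Its level in vehicle was 39.7, 24 and 24.2 FPKM at ZT0 and 68.3, 82.8 and 94.9 FPKM at ZT12. In Libramed it was 53.4, 32.1 and 64.4 FPKM at ZT0 and 74.1, 78.1 and 106 FPKM at ZT12. No ZT0 library reached a ZT12 library, and the rise of 1.15 ± 0.20 (adjusted p = 0.00131) was the largest of the 16 calls over both treatments. Gstt3 rose by 0.77 ± 0.20 (adjusted p = 0.0136), and Gstt1 by an estimated 0.36 ± 0.14 that did not pass (adjusted p = 0.0628).

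Of the alpha class, Gsta4, which conjugates the lipid peroxidation product 4-hydroxynonenal, was at 27.7, 16.2 and 21.3 FPKM in vehicle at ZT0 and at 51.3, 52.5 and 36.7 FPKM at ZT12. The Libramed values were 42.0, 20.2 and 53.7 FPKM at ZT0 and 47.7, 51.8 and 68.1 FPKM at ZT12. The groups were apart in vehicle (1.09 ± 0.22, adjusted p = 0.0274) and overlapped in Libramed, where Libramed ZT0 replicate 2 stood far below the other 2 mice (0.61 ± 0.33, adjusted p = 0.279). Gsta2 showed the same layout at a lower level. It was at 3.50, 2.39 and 2.73 FPKM in vehicle at ZT0 and at 8.59, 9.97 and 7.38 FPKM at ZT12 (1.32 ± 0.14, adjusted p = 0.00548). Its Libramed ZT0 values were 8.80, 1.78 and 9.02 FPKM and its Libramed ZT12 values 6.19, 7.96 and 12.3 FPKM. The call of Gsta2 over both treatments (0.93 ± 0.30, adjusted p = 0.0338) was lost without any one of the 6 vehicle libraries, without Libramed ZT0 replicate 2 or without Libramed ZT12 replicate 3 (adjusted p 0.0534 to 0.0745). Gsta3 gave 0.39 ± 0.14 (adjusted p = 0.0567), with its lowest value of 788 FPKM in vehicle ZT0 replicate 2 and 1375 to 1912 FPKM in the other 11 livers. Gstz1 rose by 0.21 ± 0.06 (adjusted p = 0.0161), a call lost under quantile normalization (0.06, adjusted p = 0.347).

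Gstm4, a mu class enzyme at chr3:108040408-108044894, minus strand, fell. In vehicle it was at 40.1, 20.2 and 30.5 FPKM at ZT0 and at 20.7, 19.3 and 18 FPKM at ZT12. With Libramed it was at 31.4, 34.3 and 34.9 FPKM at ZT0 and at 21.9, 20.9 and 19.0 FPKM at ZT12. Apart from vehicle ZT0 replicate 2, which lay among the ZT12 values, all ZT0 mice were above all ZT12 mice. The log2 fold change was -0.62 ± 0.13 over both treatments (adjusted p = 0.00291) and -0.68 ± 0.09 in Libramed (adjusted p = 0.00539), against -0.57 ± 0.23 in vehicle (adjusted p = 0.157). Gstm7 fell by 0.54 ± 0.15 on the log2 scale over both treatments (adjusted p = 0.0186). Gstm3 fell in Libramed by 0.69 ± 0.18 (adjusted p = 0.0496), a call lost in 11 of 14 limma alternatives and kept by Cyber-T. Of the 7 mu class members 6 had a negative estimate over both treatments, while 51.6% of all genes tested had a positive one. The 2 mu class calls over both treatments were 28.6% of the class, close to the 29.7% of all genes. Gstm1, the mu class member with the highest level, had an estimate of -0.06 (adjusted p = 0.826), Gstp1 of -0.14 (adjusted p = 0.770) and the mitochondrial Gstk1 of 0.10 (adjusted p = 0.397). Gsto1, which reduces dehydroascorbate, had an estimate of 0.29 ± 0.11 (adjusted p = 0.0600).

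**Figure D3:**
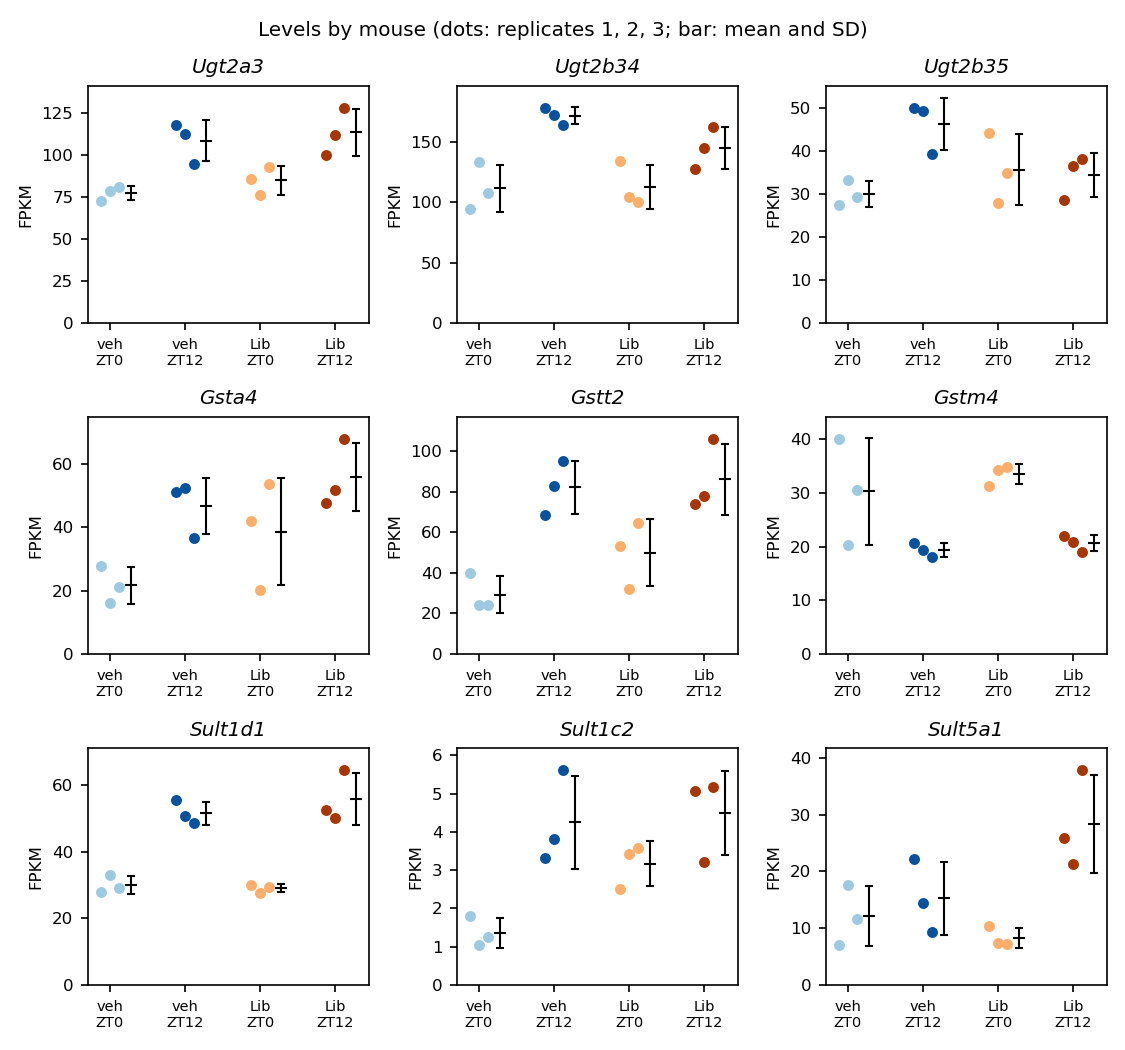
Level in FPKM of 9 members in each mouse, with 1 dot per replicate (1, 2, 3 from the left) and the mean with SD beside them, for vehicle (veh) and Libramed (Lib) at ZT0 and ZT12. Sult1d1, Ugt2a3 and Gstt2 separate ZT0 from ZT12 in both treatments, Gstm4 is lower at ZT12 but for vehicle ZT0 replicate 2, and Sult5a1 separates the times in Libramed.

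An exact permutation test over the mice, with times exchanged within each treatment (400 arrangements, two-sided), was run on the named members only. Most of these were named for a limma call on the same libraries, so a small p here is no separate support. The share of all genes reaching such a p was not computed. The smallest p the test can reach, 0.005, was that of Sult1d1, Sult1b1, Sult2a8, Gstt2, Ugt2a3 and Ugt2b36. Gstm4, Ugt2b34, Gstt3, Gstz1 and Gsta3 each had an exact p of 0.01.

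Genes tied to the donors, and regulators of these enzymes, were followed on lists of their own, over both treatments, where 29.7% of all genes tested were called. The donor lists also hold genes that use a donor or move it elsewhere, such as Tpst1, Tpst2 and Slc35b2. Their shares therefore do not measure donor supply to the members. Of 9 tested genes for sulfate and PAPS, 5 rose at ZT12 and 1 fell (66.7% called). Papss2, the PAPS synthase of liver, was at 20.8 to 32.1 FPKM in the 6 ZT0 livers and at 53.5 to 88.6 FPKM in the 6 ZT12 livers (1.32 ± 0.12, adjusted p = 1.52e-05), while Papss1 fell by 0.70 ± 0.09 on the log2 scale (adjusted p = 0.000147). The Golgi PAPS carrier Slc35b2 rose by 0.57 ± 0.06 (adjusted p = 4.42e-05), and Tpst1, Tpst2 and the sulfate carrier Slc26a1 also rose, by 0.28, 0.34 and 0.24. For UDP-glucuronic acid 2 of 5 rose (40%), namely Ugp2 (0.38 ± 0.10, adjusted p = 0.0135) and the carrier Slc35d1 (0.30 ± 0.10, adjusted p = 0.0333).

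For glutathione none of 7 rose and 2 fell (28.6% called, close to the 29.7% of all genes), namely Gclc, the rate-limiting subunit of glutathione synthesis (-0.52 ± 0.10, adjusted p = 0.00267), and the reductase Gsr (-0.30 ± 0.07, adjusted p = 0.00607). Of the genes of other conjugation reactions reported here, the thiopurine methyltransferase Tpmt (0.39) and the glycine N-acyltransferase Glyat (0.26) rose. Of 3 efflux carriers for conjugates Abcc3 (0.83 ± 0.17, adjusted p = 0.00327) and Abcg2 (0.58 ± 0.13) rose (66.7% called). Of 5 tested NRF2 targets only Nqo1 passed (20% called), at 0.52 ± 0.18 (adjusted p = 0.0437).

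Of 16 regulators 10 rose and 2 fell (75% called, against 29.7% of all genes). The list includes the circadian genes Dbp, Tef, Hlf, Nr1d1 and Arntl, known to change with time of day. The share is therefore no result about regulators as a set. CAR (Nr1i3) was at 106 to 137 FPKM in the ZT0 livers and at 201 to 349.6 FPKM in the ZT12 livers (1.01 ± 0.12, adjusted p = 0.000101). PXR (Nr1i2) rose by 0.90 ± 0.11, FXR (Nr1h4) by 0.53 ± 0.07, and the D-box binding Dbp, Tef and Hlf by 2.25 ± 0.42, 1.29 ± 0.11 and 0.77 ± 0.11. Arnt, Hnf4a, Ppara and Rxra rose by 0.23 to 0.40. Nr1d1, which encodes the RORE-binding repressor REV-ERB alpha, and Arntl, which encodes the clock activator BMAL1, fell by 2.35 ± 0.25 and 1.5 ± 0.16 on the log2 scale. The NRF2 gene Nfe2l2 (0.05, adjusted p = 0.603) and Ahr (-0.22, adjusted p = 0.281) did not pass.

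The second question was what the product did at each time. No member passed the adjusted threshold in limma for Libramed against vehicle at ZT0 or at ZT12, and 0% of all 9806 genes did so in either. At an unadjusted p under 0.05, 3 members were higher and none lower at ZT0 (9.23% of all genes passed), and 3 were higher and 2 lower at ZT12 (6.74% of all genes). By Cyber-T, the kind of test the study used, Sult1c2 at ZT0 was the 1 member called, against 0.704% of all genes, and none was called at ZT12. Over both times with 6 mice per treatment, none of the members passed, against 0.0204% of all genes, and at an unadjusted p under 0.05 there were 3 higher and 1 lower, against 10.1%. The median log2 fold change of the members was 0.11 at ZT0 and 0.06 at ZT12, against -0.02 and -0.01 over all genes. The summed level of the Kupffer cell markers at ZT0 was 40.8 to 47.9 FPKM in vehicle and 22.7 to 37.4 FPKM in Libramed, with 4 of 5 tested markers at an unadjusted p under 0.05 and none past the adjusted threshold, and their part in these values was not tested.

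The smallest p at ZT0 was that of Sult1c2, whose 3 Libramed mice (2.5, 3.43 and 3.57 FPKM) were all above the 3 vehicle mice (1.80, 1.04 and 1.25 FPKM). The log2 difference was 0.82 with a 95% interval from 0.45 to 1.19 (adjusted p = 0.295 in limma and 0.00972 by Cyber-T). Sult1a1 was at 196, 206 and 278 FPKM in Libramed and at 191, 115 and 141 FPKM in vehicle, also without overlap (0.61, interval 0.11 to 1.11, adjusted p = 0.506). Gstt2 overlapped (0.73, interval 0.05 to 1.42, adjusted p = 0.532). Of the 34 members, 2 were higher without overlap at ZT0, and 2 were higher and 2 lower at ZT12. With 3 mice per group such separation can arise without an effect, and its share over all genes was not computed.

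At ZT12 the smallest p was that of Gstm6, a mu class enzyme, at 66.5, 68.1 and 72.5 FPKM in Libramed and at 52.8, 59.2 and 55.1 FPKM in vehicle. Its groups did not overlap (0.31, interval 0.13 to 0.48, adjusted p = 0.729). Ugt2b35 was lower in all Libramed mice (-0.41, interval -0.75 to -0.08, adjusted p = 0.729). Sult5a1 gave 0.89 (interval 0.13 to 1.64), with overlapping groups. Over both times the members with the smallest p were Sult1c2 (0.44, interval 0.07 to 0.82), Sult1a1 (0.37, interval 0.04 to 0.70) and Ugt3a1 (-0.22, interval -0.42 to -0.02), with adjusted p of 0.438, 0.466 and 0.470.

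Intervals bound the difference between treatments for members with no small p. Sult1d1 differed by 0.03 over both times, with an interval from -0.13 to 0.19. For Ugt2a3 the difference was 0.10 (interval -0.08 to 0.27). The wide interval of Gstp1, 0.49 (-0.17 to 1.15), goes with its spread between mice.

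**Figure D4:**
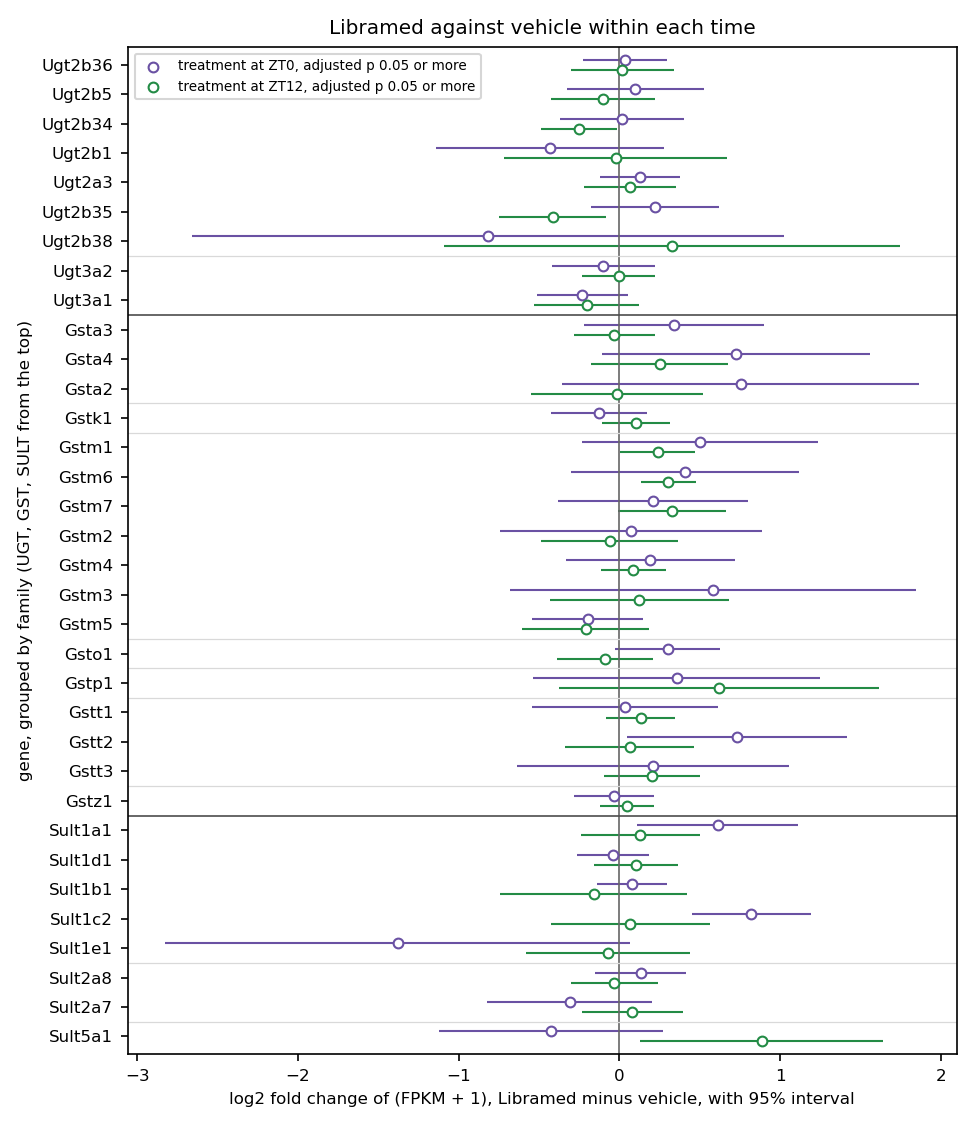
Log2 fold change of (FPKM + 1) from vehicle to Libramed for each of the 34 members, at ZT0 (purple) and at ZT12 (green), with 95% intervals from limma and 3 mice in each group. All dots are open, since none has an adjusted p under 0.05, and Sult1c2 at ZT0 and Gstm6 at ZT12 have the smallest p in their comparisons.

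The third question was whether the change over time differed between treatments, tested as the interaction of time and treatment over the 12 livers. None of the members passed in limma, as for 0% of all genes, and 3 had an unadjusted p under 0.05, 1 positive and 2 negative, against 6.63% of all genes. The estimate for Sult5a1, the change in Libramed minus that in vehicle, was 1.31 ± 0.48 (95% interval 0.26 to 2.37). For Ugt2b35 it was -0.64 ± 0.24 (interval -1.15 to -0.12) and for Sult1c2 -0.75 ± 0.28 (interval -1.37 to -0.14). The adjusted p was 0.665 for each. A call in 1 treatment and not in the other is therefore not shown to be a difference for any member.

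The fourth view was of the mice themselves, since the members varied more within groups than most genes. The median SD within groups was 0.28 on the log2 scale over the 34 members and 0.14 over all genes tested. The widest spreads were those of Ugt2b38 (1.13), Sult1e1 (0.74), Gstm3 (0.67) and Gstp1 (0.64), and the narrowest those of Gstz1 (0.08) and Sult1d1 (0.13). Within a family the same mouse was at the edge in some groups but not in all. All 7 mu class GSTs were lowest in vehicle ZT0 replicate 2 and highest in vehicle ZT0 replicate 1 of their group, and of all 17 GSTs 15 were lowest in replicate 2 and 16 highest in replicate 1. Over all genes tested these libraries were lowest and highest in their group for 36.5% and 36.3%. In Libramed at ZT0 all 7 mu class members were highest in replicate 3, against 35.2% of all genes. Libramed at ZT12 showed no such order, with 4, 1 and 2 mu class members highest in replicates 1, 2 and 3. The SULTs in vehicle at ZT0 were also split, with 4, 3 and 1 lowest in replicates 1, 2 and 3.

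The UGTs had another order. In vehicle at ZT0, 8 of 9 were lowest in replicate 1, and in vehicle at ZT12 all 9 were highest in replicate 1 and 8 lowest in replicate 3. Over all genes tested these shares were 38.9%, 38.3% and 31.0%. Gstp1 was the 1 GST that was lowest in vehicle ZT0 replicate 1. It was at 513, 1188 and 1243 FPKM in vehicle at ZT0, at 1250.0, 946 and 365 FPKM in vehicle at ZT12, at 1572, 834 and 1211 FPKM in Libramed at ZT0 and at 1069, 1121 and 1309.6 FPKM in Libramed at ZT12.

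**Figure D5:**
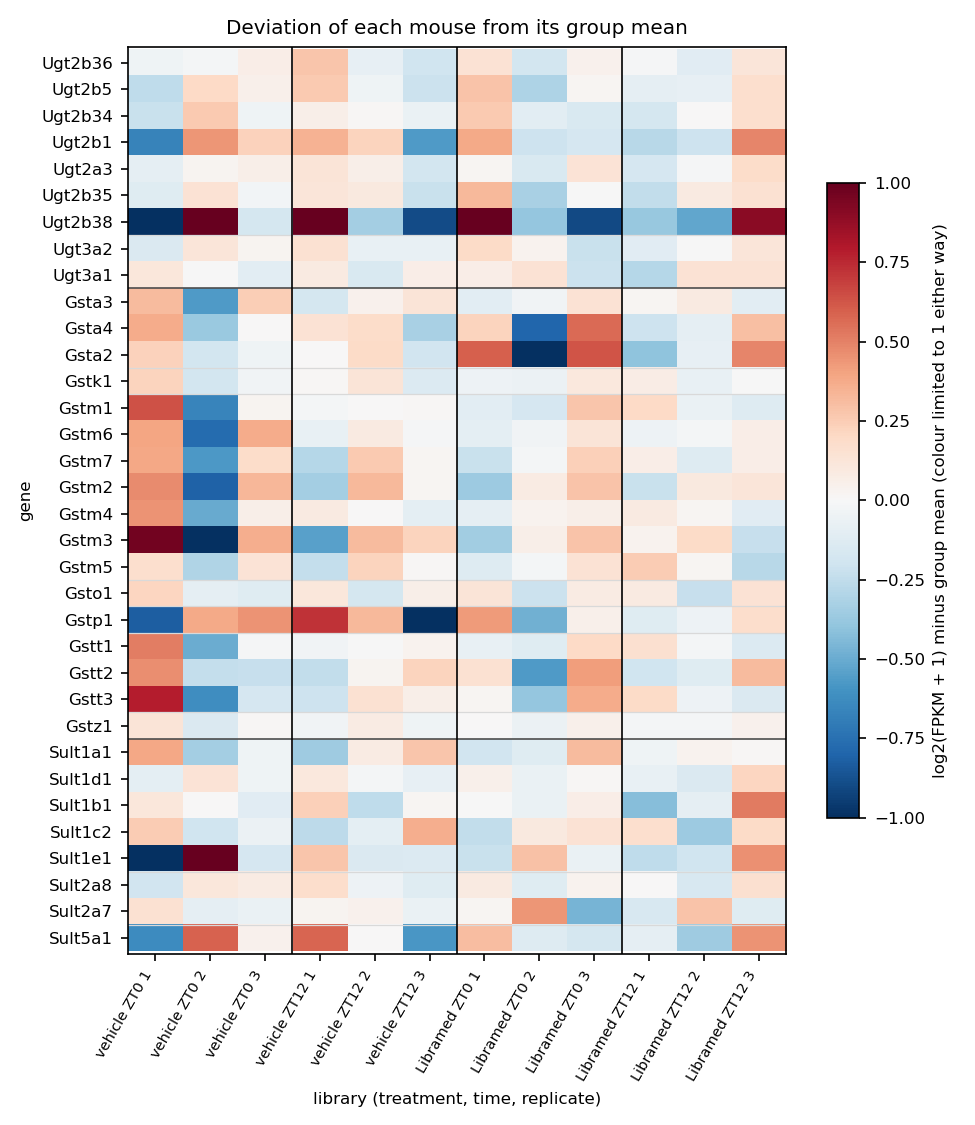
Deviation of each mouse from the mean of its group for the 34 members, in log2(FPKM + 1), with genes in rows, the 12 libraries in columns and colours limited to 1 either way. In vehicle ZT0 the mu class rows are red in replicate 1 and blue in replicate 2, while Ugt2b1, Ugt2b38, Gstp1 and Sult5a1 show the opposite colours there.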

How the data were processed

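RNA-seq libraries of 12 livers fell into 4 groups of 3 by the labels. What the authors deposited is a single table with an FPKM value for every gene in every library, and the submitters' processing notes name TopHat and Cuffnorm on mm10 (GRCm38). The study's methods name another aligner (ELAND) and RPKM, so the route to the values, and whether strand was used, are uncertain. FPKM hold no read counts, and no count model was used. Values were analysed as log2(FPKM + 1), so fold changes of low genes are understated. Genes averaging 1 FPKM or more over the libraries were tested with limma 3.58.1 (R 4.3.3, eBayes with trend, two-sided), and p-values were adjusted by Benjamini-Hochberg over the 9806 genes. Each pairwise comparison used its 6 libraries. Time over both treatments, treatment over both times and the interaction used all 12. The study used a Cyber-T test at p under 0.05 and does not say whether p was adjusted. Cyber-T was run here as an alternative, with adjusted p.

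Named with values were members with an adjusted p under 0.05 in any comparison, the highest member of each family, and the 3 with the smallest p in each treatment comparison and the interaction. A few others were chosen after their values were seen (Gstm5, Ugt2b1, Ugt2b5, Ugt2b38 and Sult1e1 among them). The members, the pathway and marker lists and the tests were chosen with earlier results of these data known. Same-numbered replicates in different groups had correlations of their deviations from -0.279 to 0.341 (18 pairs), and other-numbered ones from -0.410 to 0.361 (36 pairs). No pairing of the mice by number was seen, though a shared cage or batch was not tested. The fitting code was tested on simulated data. Alternatives were another pseudocount, other filters, scalings and variance models, Cyber-T, a replicate block, 1 fit over all libraries, and leaving out each library. Part of the list of other conjugation reactions is not reported here.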

Additional observations from a re-analysis of the deposited data

How the results depend on the processing

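Of 693 alternative limma fits of 42 results on single members, which leave out Cyber-T, 605 kept their direction and their side of the threshold, 88 kept the direction but lost the call, and none changed sign. The 42 include treatment and interaction results that were never called, and their uncalled fits count among the 605. Alternatives that change only the filter or the variance model leave the fold change as it was, so its sign could not change there. The 9 members called over time in vehicle became 2 with no minimum FPKM, 3 with a replicate block and 14 by Cyber-T (11 up and 3 down, against 14.1% of all genes), and 2 to 11 when each library was left out. The 5 called in Libramed became 3 with no minimum FPKM, 3 with the replicate block and 9 by Cyber-T (7 up and 2 down, against 16.1% of all genes), and 3 to 5 when each library was left out. The 16 called over both treatments became 17 with the replicate block and 12 to 18 with each library left out. For treatment at ZT0 the count of 0 became 1 by Cyber-T (Sult1c2), and it was 0 under all other alternatives. The counts for treatment at ZT12, for treatment over both times and for the interaction were 0 under every alternative run. The cause of these changes was not tested. No pairing of the mice by replicate number was seen, so a call lost under the block is not read as a weaker effect. Sult1c2 has no value with a minimum mean of 5 FPKM. Read depth is known only as a ratio between libraries, so no counting error can be given for low members.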

Other observations

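The spread between mice of the same group was set beside the summed level of 7 genes known to be higher in male than in female mouse liver (Elovl3, Cyp4a12a, Cyp4a12b, Cyp2d9, Hsd3b5, Mup20 and Slco1a1). This relation was chosen after seeing the data. All mice were males, and the sum ran from 1873 FPKM in vehicle ZT12 replicate 3 and 2101 FPKM in vehicle ZT0 replicate 1 to 4941 FPKM in vehicle ZT0 replicate 2. Mup20 and Cyp2d9 made up most of it. They were at 1029 and 728 FPKM in vehicle ZT0 replicate 1 and at 3128 and 1043 FPKM in replicate 2. The relations below are therefore mainly with these genes rather than with the list as a whole. Both measures were taken on the log2 scale, as deviations from the group mean, over the 12 mice, and 34 relations were computed, with an exact permutation test within groups (1296 arrangements, smallest possible p 0.000772). After Benjamini-Hochberg adjustment 8 members passed for Pearson's r, all with a positive r, and 10 for Spearman's rho. The relation was not computed for other genes, so the share of all genes that would pass is not known. These counts therefore do not set the members apart from other liver genes. The adjustment covers the 34 relations but not the choice of the list, so these p-values only describe the relation.

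Gstp1 had r = 0.954 (exact p = 0.00231, adjusted 0.0131) and rho = 0.923 (exact p = 0.00772, adjusted 0.0291). Without the 2 mice whose deviation in the sum was farthest from the median deviation (vehicle ZT0 replicate 1 and vehicle ZT12 replicate 3), r was 0.92 over 10 mice. Ugt2b1 had r = 0.942 (exact p = 0.000772, adjusted 0.00874), rho = 0.853 (exact p = 0.000772, adjusted 0.0131) and r = 0.88 without those mice. Ugt2b5, Ugt2b35, Ugt2b34, Ugt2b38, Sult2a8 and Sult5a1 also passed, with r from 0.713 to 0.898. Sult1c2 had r = -0.74 (exact p = 0.0154, adjusted 0.0583) and rho = -0.727 (exact p = 0.0139, adjusted 0.0472), and r was -0.556 without those mice. None of the 7 mu class GSTs passed, with r from -0.725 to -0.465. What sets the order of the mice was not tested.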
